A study of Mus musculus with 2 samples.

Results

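The 10 transcription factor genes followed here belong to the ventral forebrain and were measured in cultured mouse neural stem cells after knockdown of the histone variant H3.3: Dlx1, Dlx2, Dlx5, Dlx6, Gsx1, Gsx2, Sp8, Sp9, Vax1 and Nkx6-2. They were picked by symbol from the 18510 genes of the deposited count table, and all 10 were found there. The choice was made with the difference between these libraries already known, so the differences given here are a description and were not tested. The cells were isolated from CD-1 brains at embryonic day 12 and were grown for 5 days in medium that keeps them dividing. They were then infected with a lentivirus that carried a control plasmid (the control library) or an H3.3 knockdown plasmid (the knockdown library), so both groups were exposed to virus. Each group held 1 library of RNA enriched with oligo(dT), and there was therefore no replicate check and no test of the condition. No label states the brain region taken, the number of embryos pooled or the sequence used for the knockdown.

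The ventral telencephalon, or subpallium, gives rise to striatal neurons, olfactory bulb interneurons and cortical interneurons, most of which use GABA. In its progenitors the homeodomain factors Gsx2 and Gsx1 act early, and the homeodomain factors Dlx1 and Dlx2 follow as cells leave the cycle and in turn raise Dlx5 and Dlx6. Sp8 and Sp9 are zinc finger factors of precursors and young interneurons from the lateral and caudal ganglionic eminences. Vax1 patterns the ventral forebrain and optic stalk, and Nkx6-2 is a homeodomain repressor that depends on Hedgehog signalling in ventral progenitors.

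Gene counts summed to 9184779 for the control library and to 8702855 for the knockdown library. Levels are in CPM, which relate each count to the sum of its library, and a count of 0 would allow up to 0.327 CPM in the control library and 0.345 CPM in the knockdown library with 3 counts as the limit. Intervals are exact 95% intervals of the counts. They cover counting error only, since amplified reads with no molecular identifier need not be separate molecules. H3f3b, the more abundant of the H3.3 genes, had 821 CPM in the control library and 447 CPM in the knockdown library, and H3f3a had 209 and 135 CPM. Both differed in the direction of the labels without reaching a 2-fold difference. The progenitor genes Nes, Sox2 and Vim had 544, 522 and 1408 CPM in the control library and 462, 439 and 1403 CPM in the knockdown library. En2 of the midbrain and hindbrain had 2.18 and 4.37 CPM.

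Of the 10 genes, 9 were lower in the knockdown library by a size rule, namely a mean level of 1 CPM or more, a difference of 2-fold or more and a counting interval without 1. None was higher, and Dlx6 did not meet the rule. By the same rule 2.54% of the 13989 genes that reach this mean level were lower and 3.82% were higher, and 1.69% of the 10279 genes with a mean of 10 CPM or more were lower. The choice of the genes used this contrast, so nothing is read from the 9 against that background. Below, a gene that met the rule is said to be lower, to have fallen, to be higher or to have risen. All 10 log2 ratios of knockdown over control were below 0, with a median of -1.65, against -0.03 for all tested genes. Together the 10 genes took 1063 CPM of the control and 356 CPM of the knockdown library, 0.335 of the control level (0.321 to 0.349).

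Gsx2, which marks progenitors of the lateral ganglionic eminence, had 297 counts in the control library and 72 in the knockdown library. These are 32.3 CPM (28.8 to 36.2) and 8.27 CPM (6.47 to 10.4), a level 3.91-fold lower. Its paralog Gsx1, which shares those progenitors and is known in the mouse to promote their maturation, went from 164 to 54 counts. Its levels were 17.9 CPM (15.2 to 20.8) and 6.20 CPM (4.66 to 8.10), and its ratio of 0.348 had an interval of 0.251 to 0.475. Both early factors thus stood lower in the knockdown library, with counting intervals of the levels that did not overlap.

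Among the Dlx genes, Dlx1 had the most counts, with 3982 in the control library and 1463 in the knockdown library. Its level went from 434 to 168 CPM, 0.388 of the control (0.365 to 0.412). Dlx2, the partner of Dlx1 in driving the exit of progenitors towards GABA neurons, went from 309 to 72.5 CPM, 0.234 of the control (0.215 to 0.256). The intervals of the 2 ratios did not overlap, so by these intervals the difference was larger for Dlx2. Dlx5, which acts after Dlx1 and Dlx2, went from 536 to 167 counts, or 58.4 CPM (53.5 to 63.5) and 19.2 CPM (16.4 to 22.3).

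Dlx6, the neighbour and partner of Dlx5, stood apart from the other 9 genes. It had 166 counts in the control library and 132 in the knockdown library, which are 18.1 CPM (15.4 to 21.0) and 15.2 CPM (12.7 to 18.0). The level intervals overlapped, and the ratio of 0.839 had an interval of 0.663 to 1.06 that includes 1. At this depth no difference in Dlx6 was detectable, and the interval of its ratio lay above those of the other 9 genes, which reached at most 0.594 (Nkx6-2).

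Sp9, which is needed in the mouse for neurons of the indirect striatal pathway and for interneurons, had 977 counts in the control library and 285 in the knockdown library. Its level went from 106 CPM (99.8 to 113) to 32.7 CPM (29.1 to 36.8). Sp8, its paralog in olfactory bulb and cortical interneuron precursors, went from 611 to 261 counts, or 66.5 CPM (61.4 to 72.0) and 30.0 CPM (26.5 to 33.9). With a ratio of 0.451 (0.388 to 0.522), Sp8 had the smallest difference of the 9 lower genes, and its interval reached past the 2-fold line. The interval of Sp9, at 0.269 to 0.352, lay wholly below that of Sp8.

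Vax1 had the largest difference of the 10 genes, with 160 counts in the control library and 25 in the knockdown library. These are 17.4 CPM (14.8 to 20.3) and 2.87 CPM (1.86 to 4.24), a level 6.06-fold lower, at rank 11 of the 13989 tested genes when ordered from the lowest log2 ratio. Nkx6-2 was the least abundant, with 29 counts in the control library and 7 in the knockdown library. Its levels were 3.16 CPM (2.11 to 4.53) and 0.804 CPM (0.323 to 1.66), and the interval of its ratio, 0.0942 to 0.594, was the widest of the set. The log2 ratio of Nkx6-2 was -1.90 here and -1.97 in the authors' deposited table.

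**Figure D1:**
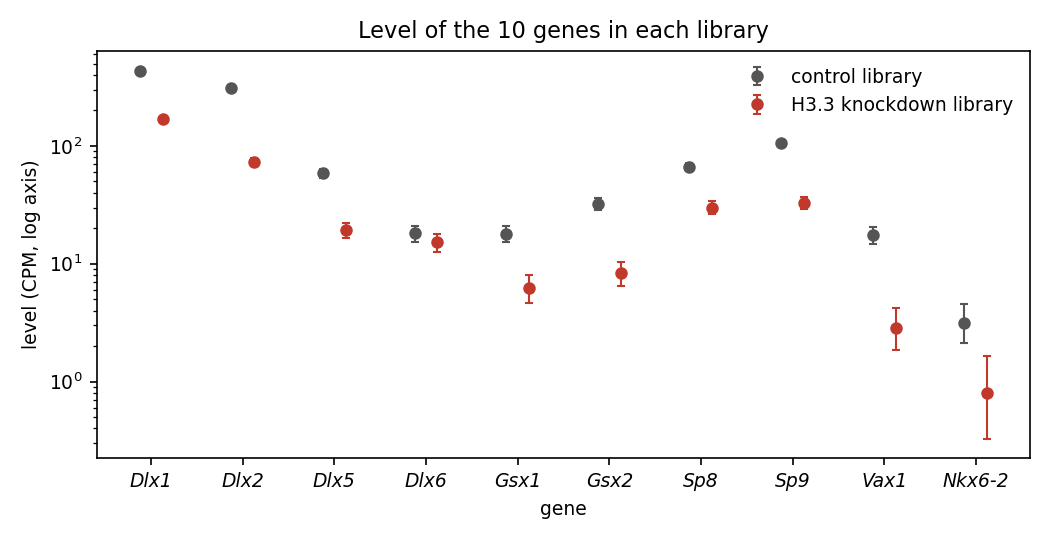
Level of each of the 10 genes in CPM (log axis) in the control library and the H3.3 knockdown library. Points are 1 library each and bars are exact 95% Poisson intervals, which overlap for Dlx6 and for none of the other genes.

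**Figure D2:**
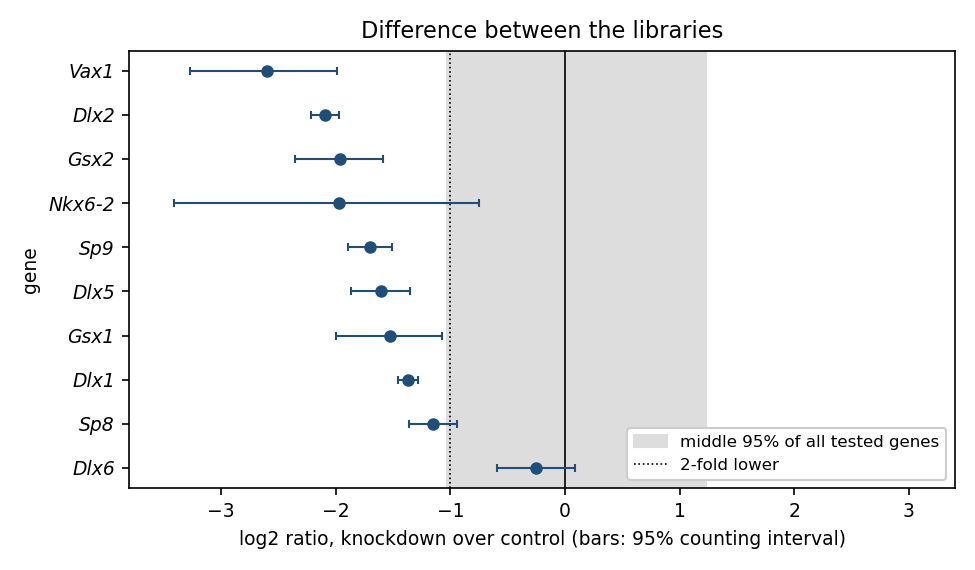
Log2 ratio of knockdown over control for each gene without added counts, with its 95% counting interval. The grey band holds the middle 95% of all 13989 tested genes, from -1.03 to 1.23, and Dlx6 is the 1 gene whose point lies inside it.

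Within each library the genes can be ordered by level only per length of transcript, here in CPM per kilobase of the longest annotated transcript. In the control library Dlx2 led with 125 CPM per kilobase (121 to 130), followed by Dlx1 with 105 (102 to 109), Dlx5 with 41.0 and Sp9 with 23.6. In the knockdown library Dlx1 led with 40.9 (38.8 to 43.0), ahead of Dlx2 with 29.3 (27.1 to 31.7), Dlx5 with 13.5 and Sp9 with 7.25. The first 2 places were thus exchanged, with a Dlx1 level per kilobase of 0.843 of that of Dlx2 in the control library and 1.39 of it in the knockdown library. Further down the control order came Gsx2 at 19.4, Vax1 at 16.7, Sp8 at 14.9, Gsx1 at 10.1, Dlx6 at 8.16 and Nkx6-2 at 1.66 CPM per kilobase. Gsx2 and Vax1, Vax1 and Sp8, and Gsx1 and Dlx6 did not differ beyond counting error as neighbours in this order. In the knockdown library Dlx6 stood at place 5 with 6.84, next to Sp8 with 6.70. Below them came Gsx2 with 4.97, Gsx1 with 3.50, Vax1 with 2.75 and Nkx6-2 with 0.422 CPM per kilobase. The neighbours Sp9 and Dlx6, Dlx6 and Sp8, Gsx2 and Gsx1, and Gsx1 and Vax1 did not differ beyond counting error there.

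Shares within a pair of paralogs do not depend on how the libraries are scaled. Dlx1 took 58.4% (57.2 to 59.5) of the counts of Dlx1 and Dlx2 in the control library and 69.9% (67.9 to 71.8) in the knockdown library. The share of Dlx6 in Dlx5 and Dlx6 was 23.6% (20.5 to 27.0) in the control library and 44.1% (38.4 to 49.98) in the knockdown library. Sp8 made up 38.5% (36.1 to 40.9) of the counts of Sp8 and Sp9 in the control library and 47.8% (43.5 to 52.1) in the knockdown library. In these 3 pairs the exact binomial intervals of the 2 libraries did not overlap. For Gsx1 in Gsx1 and Gsx2 they did, at 35.6% (31.2 to 40.1) and 42.9% (34.1 to 52.0). The 4 Dlx genes as a family held 77.1% of the counts of all 10 genes in the control library and 77.3% in the knockdown library.

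**Figure D3:**
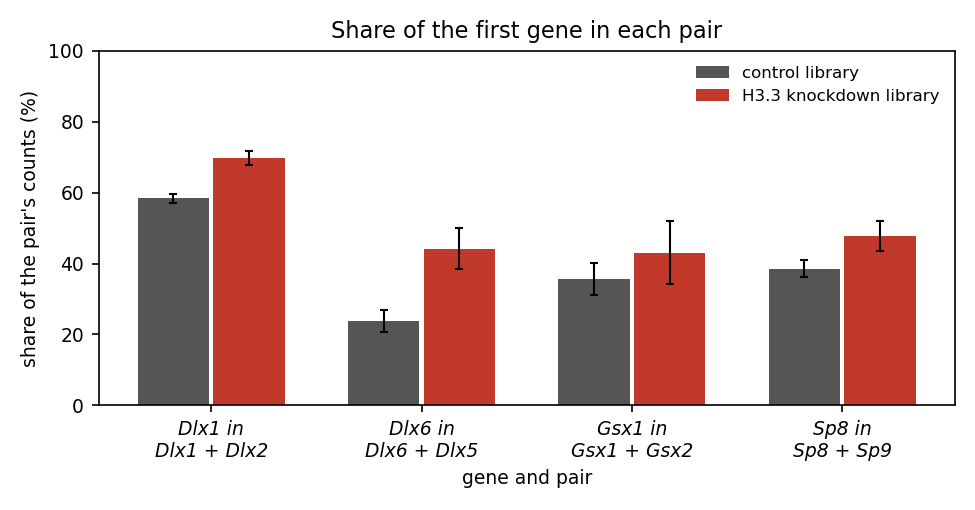
Share of the first gene in the counts of each pair, in percent, with exact 95% binomial intervals (1 library per bar). Dlx1, Dlx6 and Sp8 took a larger share in the knockdown library, and the intervals of Gsx1 overlap.

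The Dlx genes lie in 2 pairs whose members are transcribed towards each other and which are known to share enhancers between them. Dlx1 (chromosome 2 from 71528113 to 71533981, plus strand) is separated by 9426 bases from Dlx2 (71543408 to 71546754, minus strand). Dlx6 (chromosome 6 from 6863334 to 6868568, plus strand) is separated by 9236 bases from Dlx5 (6877805 to 6882085, minus strand). Positions are those of the deposited table, for which no source used here names a build. For 9 of the 10 genes, all but Sp8, they equal those of GRCm38 in the GENCODE vM21 annotation.

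Long noncoding RNAs are annotated at both pairs. Dlx6os1, also called Evf2, starts on the minus strand between Dlx5 and Dlx6, runs across Dlx6 and is known in the mouse to act on the Dlx5 and Dlx6 enhancers. It fell from 1383 to 422 counts, or from 151 to 48.5 CPM (ratio 0.322, 0.288 to 0.359). That ratio was close to the 0.329 of Dlx5 (0.275 to 0.392), and its interval lay wholly below that of Dlx6. The annotated exons of Dlx6 and Dlx6os1 share no base. Those of Dlx6 and Dlx6os2 share 104 bases, 4.38% of the exon bases of Dlx6, and Dlx6os2 had 4 counts in the control library and 1 in the knockdown library. Dlx1as, antisense to Dlx1, had 74 counts in the control library and 39 in the knockdown library (ratio 0.556, 0.367 to 0.831), which did not meet the rule. Its exons share 335 bases with those of Dlx1, 6.21% of the exon bases of Dlx1 and 20.6% of its own. No source used here says whether counting used strand, and reads in such shared bases cannot be assigned to a strand. Other overlaps were 270 bases of Sp9 with Cir1 and 246 bases of Nkx6-2 with Inpp5a, which are 5.35% and 12.9% of their exon bases.

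Most tested genes next to the 10 loci did not meet the rule, which also holds for all tested genes (2.54% lower and 3.82% higher). Nothing about the loci is therefore read from the count of neighbours past the rule. The 2 nearest listed genes on each side of each gene comprised 30 genes that were neither among the 10 nor RNA genes of the Dlx loci. Of these 24 were tested, with none lower, 1 higher and a median log2 ratio of -0.08. Of the 24 log2 ratios 13 were below 0 and 11 above 0, and 16 lay within 0.5 of 0. The higher gene was Itga6, an integrin subunit 198861 bases beyond Dlx2, which rose from 133 to 271 CPM (2.05-fold, 1.91 to 2.19). On the other side of the pair, Metap1d, a mitochondrial methionine aminopeptidase, ends 2918 bases before Dlx1. It had 18.0 and 10.6 CPM (0.588, 0.451 to 0.764, log2 ratio -0.76). Beyond Dlx5 the complex II assembly factor Sdhaf3 had 7.29 and 9.65 CPM, and beyond Dlx6 the proteasome subunit Sem1 had 101 and 87.2 CPM. Around Gsx2, the receptor gene Pdgfra had 481 and 419 CPM and Chic2 had 108 and 67.7 CPM (0.626, 0.564 to 0.694). Next to Vax1, Shtn1 had 127 CPM in both libraries and the vesicular monoamine transporter Slc18a2 had 10.6 and 6.78 CPM (0.642, 0.456 to 0.896). Inpp5a, whose exons overlap those of Nkx6-2, had 34.4 and 40.0 CPM, and Cir1, which overlaps Sp9, had 25.2 and 19.9 CPM. Sp4, the nearest listed gene before Sp8 and a member of its family, had 74.0 and 62.2 CPM.

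**Figure D4:**
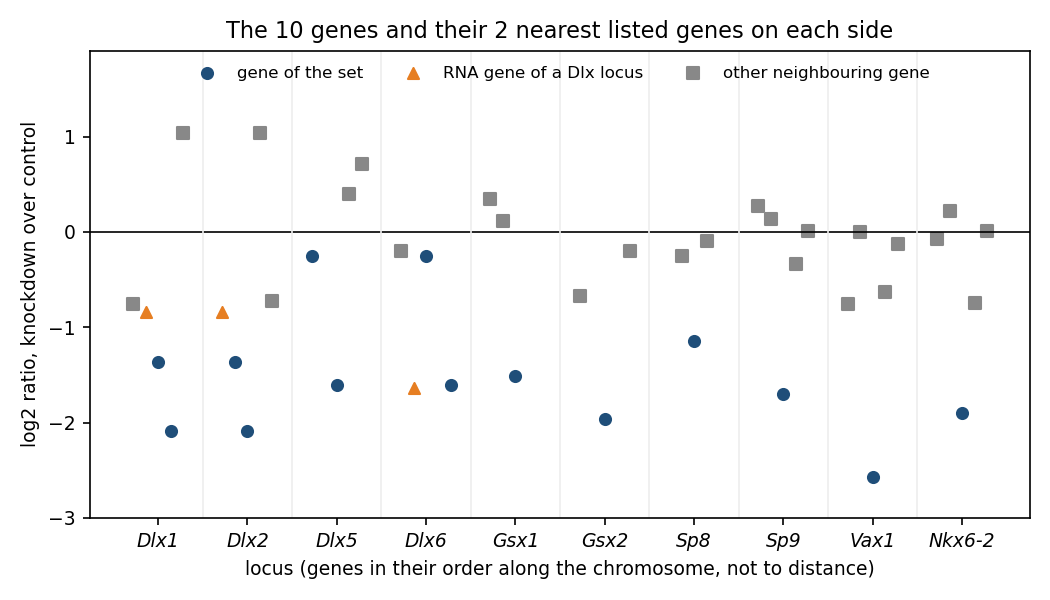
Log2 ratio of knockdown over control for each of the 10 genes and for the tested genes among the 2 nearest listed ones on each side, in chromosome order. Of the 10 genes 9 lie below -1, as does Dlx6os1, Dlx1as is at -0.84 and the other neighbouring genes lie between -0.76 and 1.03 (genes shared by 2 loci are drawn at both).

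Promoter sequences of RefSeq (GRCm38.p6) were at hand for 8 of the 10 genes, all but Dlx5 and Dlx6, with 10 starts in all. Letters of known binding motifs were sought in the 250 bases before each start, on both strands. The homeodomain core TAATTA was in the window of 1 of these 10 starts, an alternative start of Sp8, and in 4.84% of all 32851 promoters. The GC box GGGCGG, bound by Sp factors, was in 4 of the 10, those of Dlx2, Gsx2, Sp9 and 1 start of Sp8, and in 32.7% of all promoters. Neither the E-box CAGCTG nor the Gli motif GACCACCCA was in any of the 10 windows, against 13.0% and 0.225% of all promoters. The windows of Dlx2 and Nkx6-2 held 24 and 26 CG dinucleotides, that of Vax1 held 11 and those of the 3 Sp8 starts held 1, 32 and 6, and the median of all promoters was 6. Shown are the windows of 3 genes that hold a GC box, in capitals, and that of Vax1, the gene with the largest difference, which holds none. The window of Dlx1 overlaps an annotated exon and is not shown, and that of Sp9 is shown to 249 bases, up to its first annotated exon.
Dlx2, chr2:71546755-71547004, minus strand: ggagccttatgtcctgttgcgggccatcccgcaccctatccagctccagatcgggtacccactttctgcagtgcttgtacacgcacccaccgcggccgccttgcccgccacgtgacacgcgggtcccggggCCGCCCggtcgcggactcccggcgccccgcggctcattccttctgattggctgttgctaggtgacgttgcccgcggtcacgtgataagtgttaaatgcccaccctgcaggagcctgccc
Gsx2, chr5:75075351-75075600, plus strand: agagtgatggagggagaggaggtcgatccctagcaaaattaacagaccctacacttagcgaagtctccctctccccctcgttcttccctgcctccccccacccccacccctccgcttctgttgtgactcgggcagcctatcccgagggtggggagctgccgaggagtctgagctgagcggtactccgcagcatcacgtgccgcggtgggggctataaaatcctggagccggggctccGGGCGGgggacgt
Sp9, chr2:73271676-73271924, plus strand: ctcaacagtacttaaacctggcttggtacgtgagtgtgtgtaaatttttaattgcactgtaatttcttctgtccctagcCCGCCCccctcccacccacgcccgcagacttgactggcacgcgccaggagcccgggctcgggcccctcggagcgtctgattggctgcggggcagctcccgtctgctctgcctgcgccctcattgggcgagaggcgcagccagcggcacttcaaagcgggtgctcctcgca
Vax1, chr19:59170398-59170647, minus strand: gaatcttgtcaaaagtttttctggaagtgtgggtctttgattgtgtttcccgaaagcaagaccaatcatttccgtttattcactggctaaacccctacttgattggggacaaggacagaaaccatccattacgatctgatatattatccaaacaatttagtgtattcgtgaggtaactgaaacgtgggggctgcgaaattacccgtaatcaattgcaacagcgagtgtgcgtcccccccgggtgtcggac

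Related genes of the ventral forebrain differed in both directions. For this list and those that follow, the shares over all tested genes were 2.54% lower and 3.82% higher. Of 30 other factors of ganglionic eminence progenitors and precursors, 3 were lower and 1 was higher, with a median log2 ratio of -0.23. Among them Helt, a bHLH factor known for GABA neurons of the midbrain, fell from 65 to 21 counts, whereas Gbx1 rose from 29 to 72 counts (2.62-fold, 1.68 to 4.18). Of the 30 log2 ratios 22 were below 0 and 8 above 0. Most did not meet the rule, among them Isl1 (-0.06), Ebf1 (-0.09) and Meis2 (-0.65) of the lateral eminence. Others of the list that did not meet it were Pou3f4 (-0.90), Zeb2 (-0.78) and, on the other side, Foxp2 (0.56). Of 13 tested factors of the medial ganglionic eminence and preoptic area, Gli1 was lower (128 to 22 counts) and Otp was higher (23 to 50 counts), with a median of 0.19. Nkx2-1, which specifies the medial eminence, had 60.8 and 31.5 CPM (0.518, 0.447 to 0.5999) and did not meet the rule. Its target Lhx6 had 55.9 and 68.3 CPM.

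Genes of GABA neurons listed as downstream of Dlx factors went both ways, with 10 log2 ratios below 0 and 16 above 0. The list does not separate genes that Dlx factors raise from genes that they repress. Among 26 tested, 2 were lower, including the kinase Pak3, Reln and Sst were higher, and the median was 0.18. Against 2.54% lower and 3.82% higher over all tested genes, nothing is read from counts this small. Reln, which encodes the secreted guidance protein reelin, rose from 169 to 448 CPM (2.64-fold, 2.49 to 2.80), and the neuropeptide gene Sst rose from 161 to 328 CPM (2.03-fold, 1.91 to 2.17). Pak3 fell from 304 to 151 CPM, a call lost with TMM scaling (log2 ratio -0.996). The GABA synthesis genes had log2 ratios of 0.82 for Gad1 and -0.28 for Gad2, and the vesicular transporter Slc32a1 had 0.40. None of these 3 met the rule.

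Among 19 tested factors of the dorsal forebrain 3 were higher and 1 was lower, with a median of -0.05. The shares over all tested genes were 3.82% higher and 2.54% lower. Neurod2 rose from 69.9 to 164 CPM (2.35-fold, 2.14 to 2.58), Tbr1 of deep layer neurons from 68.3 to 151 CPM (2.21-fold, 2.01 to 2.44) and Emx1 from 87 to 170 counts. The call of Emx1 was lost after correction for transcript length and GC content (log2 ratio 0.98). Eomes, a factor of dorsal intermediate progenitors, fell from 57.1 to 18.2 CPM (0.318, 0.265 to 0.381). Pax6, which is high in dorsal progenitors, had 101 and 54.2 CPM (0.536, 0.478 to 0.599) and did not meet the rule.

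Of 17 tested signals, receptors and regional regulators, 6 were lower and 1 was higher, with a median of -0.48. Gli2 and Gli3, transcription factors of Hedgehog signalling, were lower, at ratios of 0.445 (0.381 to 0.517) and 0.456 (0.406 to 0.513). Gli1, counted above in the medial eminence list, was lower as well, at a ratio of 0.181 (0.110 to 0.287). The Hedgehog pathway genes Ptch1 and Smo did not meet the rule, with ratios of 1.01 (0.941 to 1.08) and 0.740 (0.678 to 0.807). Shh, of the medial eminence list, had 37 and 35 counts. The receptor gene Fgfr2 fell to 0.447 (0.412 to 0.486), while Fgfr1 and Fgfr3 both had a ratio of 1.06 and did not meet the rule. Nr2e1, which helps set the border between dorsal and ventral telencephalon, fell to 0.476 (0.435 to 0.520). Fgf15 fell from 26 to 4 counts and Aldh1a3, a retinoic acid enzyme of the lateral eminence, from 34 to 7 counts. Crabp1, which binds retinoic acid, rose from 62 to 144 counts (2.45-fold, 1.81 to 3.36).

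Other members of the same families and other homeobox genes were described in the same way. Of 12 further Dlx, Vax, Nkx6 and Sp genes 8 were listed and 5 tested, and Sp5, known as a Wnt target, was lower (48 to 12 counts). The broadly expressed Sp1, Sp2, Sp3 and Sp4 had log2 ratios between -0.34 and -0.25. The deposited table assigns a homeobox domain to 79 genes outside the 10, a set added after the values were seen. Of the 50 tested, 4 were lower and 9 higher, with a median of 0.15. Among the 4 lower genes were Nkx2-2 (34.2 to 10.7 CPM), Nkx2-3 (79 to 7 counts) and Prrx1 (33.5 to 16.2 CPM), of which Nkx2-2 and Nkx2-3 were singled out after their values were seen. Of the 9 higher genes, Emx1, Gbx1 and Otp are given above. Among the others, chosen after their values were seen, Lhx1 rose from 29 to 82 counts (2.98-fold), Shox2 from 20 to 58 (3.06-fold), Dbx2 from 15 to 49 (3.45-fold) and Barhl1 from 7 to 28 (4.22-fold).

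**Figure D5:**
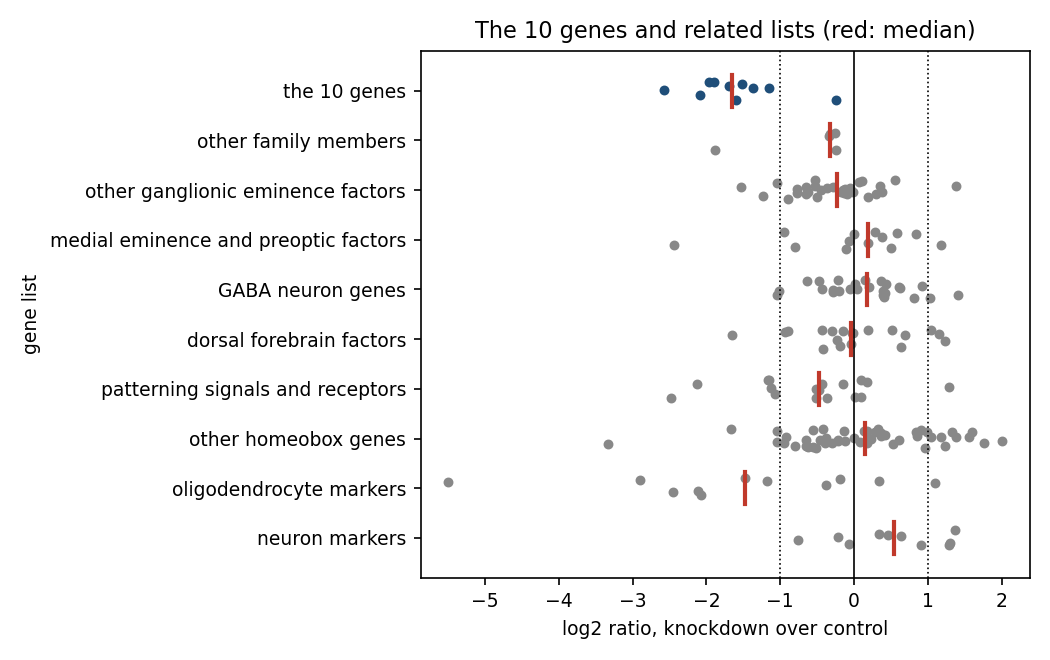
Log2 ratio of knockdown over control for the 10 genes and for the tested genes of related lists, each point a gene and each red line the median. The 10 genes have a median of -1.65, the other homeobox genes 0.15 and the neuron markers 0.54, and dotted lines mark 2-fold differences.

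In RNA from a whole culture, fewer cells of a type and less RNA per cell cannot be told apart, and markers of other cell types differed as well. Of 11 oligodendrocyte lineage markers 7 were lower and 1 was higher (median -1.47), with a summed level of 1296 CPM in the control library and 785 CPM in the knockdown library. Among them Sox10 fell from 157 to 56.6 CPM, Bcas1 from 218 to 50.1 CPM and Myrf from 60.3 to 10.9 CPM. Mbp fell from 520 to 217 counts, Mag from 27 to 3 counts and Enpp6 from 71 counts to 1. Mog rose from 23 to 47 counts, a call lost with 5 counts added. The other 3 did not meet the rule: Pdgfra with 481 and 419 CPM, Cnp with 211 and 162 CPM and Cspg4 with 31.8 and 40.0 CPM. Nor did Olig1 (763 and 993 CPM) and Olig2 (391 and 409 CPM), which are in the ganglionic eminence list. Of 10 neuron markers 3 were higher and none was lower (median 0.54), and their sum was 5686 and 7511 CPM. Gap43, Snap25 and Nefl rose 2.46-fold, 2.45-fold and 2.59-fold, while Tubb3 had 1024 and 979 CPM. Other markers had lower values without meeting the rule, Syt1 with 205 and 120 CPM (0.588, 0.545 to 0.635) and Elavl3 with 446 and 384 CPM (0.861, 0.822 to 0.901). Mesenchyme markers summed to 70.8 and 59.2 CPM, with Pdgfrb (0.258 of the control) and Prrx1 (0.483) lower and Col3a1 (3.68-fold), Col1a2 (2.65-fold) and Col1a1 (2.09-fold) higher of 5 tested. Endothelial, microglia and erythroid markers summed to 10.02 and 16.2 CPM, with C1qa higher (5 to 14 counts) of 5 tested, a call lost with median-of-ratios scaling. Of their 12 genes, Cdh5, Cldn5, Hba-a1 and Hbb-bt are not among the listed genes. The part of these cell types in the lower levels of the 10 genes was not tested.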

How the data were processed

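Polyadenylated RNA from 2 µg of total RNA per culture was reverse transcribed with random primers and sequenced, per the labels' protocols. The deposited counts are whole reads per gene, not normalized, per the file headers, and the deposited log2 fold change is the authors' own value. Tools named in the submitters' processing notes are HTSeq 0.6.0, TopHat2 2.0.12 and Bowtie 1.0.1, whose settings no source used here states. The table also holds 2 columns of normalized values, which were not used. Of its 18510 listed genes 18423 had a symbol, and 1 further row was not analysed here.

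Each count was scaled to the sum of its library. Log2 ratios are knockdown over control with 0.5 counts added to both libraries. Intervals of a ratio are exact conditional (Clopper-Pearson) intervals of the 2 counts without added counts, those of a level are exact Poisson intervals and those of a share exact binomial intervals, all at 95%. A gene was called at a mean level of 1 CPM or more, a 2-fold difference of the log2 ratio and a ratio interval that excludes 1. The median count of the tested genes was 285 in the control library and 258 in the knockdown library. Transcript lengths, GC content and exons came from GENCODE vM21. TMM factors came from edgeR 4.0.16 and median-of-ratios factors from DESeq2 1.42.0, for alternatives only. Python 3.11.15 with scipy 1.17.1 and statsmodels 0.14.6 was used, and the procedure was tested on simulated data.

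The 10 genes, 12 gene lists and the alternatives were chosen with earlier results of these data known. Named were the 10 genes, their neighbours (in part, the rest by count), up to 8 members of each list past the rule (otherwise its 2 most abundant), and the H3.3 genes. Other list members, the markers of progenitors and brain regions and the sequence motifs were picked after the values were seen. Of 169 genes in the lists, 2 are in more than 1. A few list genes past the rule are not reported here by name.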

Additional observations from a re-analysis of the deposited data

How the results depend on the processing

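The log2 ratios of the 10 genes kept their sign and stayed within their counting intervals with TMM scaling, median-of-ratios scaling, 5 counts added, the length and GC correction and the authors' deposited log2 fold change. The count of 9 lower genes was 8 with a minimum of 10 CPM, where Nkx6-2 was not tested, and 9 in the other settings. All lower genes numbered 174 and all higher genes 169 with a minimum of 10 CPM, and 1147 and 1261 at a 1.5-fold threshold. At 10 CPM 0 genes were lower among the other family members (4 tested) and 0 among the medial eminence factors. There 0 were higher among the ganglionic eminence, medial eminence, oligodendrocyte and mesenchyme lists, the mesenchyme median turned to -1.50 (2 tested), the median of the Dlx RNA genes was -1.63 (1 tested), and the endothelial, microglia and erythroid list had no tested gene. At 1.5-fold the lower genes numbered 8 for ganglionic eminence factors, 3 for dorsal factors, 2 each for medial eminence factors, Dlx RNA genes and H3.3 genes, and 1 for neuron markers. The higher genes then numbered 6 for GABA neuron genes, 5 each for dorsal factors and neuron markers, and 2 each for medial eminence factors and endothelial, microglia and erythroid markers. TMM scaling and the length and GC correction each left 1 lower GABA neuron gene, 5 counts added left 0 higher oligodendrocyte genes, and median-of-ratios scaling left 0 higher endothelial, microglia and erythroid genes. Per kilobase of all exons together, the ratio of Dlx1 to Dlx2 was 0.741 in the control library and 1.23 in the knockdown library, and that of Dlx6 to Dlx5 was 0.295 and 0.753. That of Sp8 to Sp9 went from 0.923 to 1.01 in the knockdown library, so Sp8 then stood ahead of Sp9, within counting error. Fewer genes are tested at 10 CPM and more can pass at 1.5-fold by construction, and for the other settings the cause was not tested. No paired analysis was possible because each group held 1 library, and no library could be left out. Depth limits Nkx6-2 most, at 29 and 7 counts.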
